A study of Arabidopsis thaliana with 3 samples.

Results

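The ribosomal protein genes of Arabidopsis were examined in plants that overexpress SlHsfA3, a heat stress transcription factor of tomato, from the constitutive CaMV 35S promoter. RNA had been sequenced from 3 libraries: OE line #3, OE line #6 and the wild type Col-0, which carries no transgene. Both lines are independent insertions of the same construct. Each library was 1 pool of the aerial parts of 20 plants aged 4 weeks, grown without stress at 22°C with 16 h of light and 8 h of dark. The genes were chosen by their description and by their reads: nuclear loci described with the words ribosomal protein, without a word for chloroplast, plastid, mitochondria, kinase, methyltransferase or acetyltransferase, and with at least 100 reads over the 3 libraries together. This rule took 275 of the 33602 genes of the table, after 364 genes had the words, 24 were left out for another word and 65 had fewer reads. Only the sum of reads entered the choice, not the comparison between genotypes, so the levels are given as a description.

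The name of the group holds for part of it. By family, 168 of the 275 genes encode proteins of the cytosolic ribosome: 84 belong to the large 60S subunit, 73 to the small 40S subunit and 11 to the acidic stalk of the large subunit. The other 107 do not. Of these, 73 encode proteins of bacterial type that belong to the ribosomes of plastids or mitochondria although their descriptions name no organelle, and 34 match a domain only, among them 4 subunits of the elongation factor eEF1B, 5 genes of the EF-G and eEF2 family and 10 nucleolar or snoRNP relatives of ribosomal proteins. A further 39 genes of cytosolic ribosomal proteins lie outside the rule because their descriptions use other words, such as Translation protein SH3-like. The cytosolic genes are called cytosolic members below, and families were also examined with these 39 genes added, which gave 207 genes in 80 families.

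The cytosolic ribosome reads mRNA in its small subunit and joins amino acids in its large subunit. Its proteins are needed in about equal numbers of molecules, and in plants each is encoded by a small family of paralogs. These genes are expressed most strongly in dividing and growing cells, and many carry short promoter elements known as site II and telo box. In yeast, heat stress represses them and the TOR kinase pathway promotes their expression. The stalk of P0 and small acidic P proteins recruits elongation factors to the ribosome.

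Reads in genes came to 11556077 in line #3, 10786332 in line #6 and 9968154 in Col-0. The libraries differed in other content. Nuclear rRNA genes took 15.9% of the reads in line #3, 8.82% in line #6 and 12.9% in Col-0, and genes of the organelle genomes took 19.4% in line #3, 14.3% in line #6 and 16.1% in Col-0. Leaf RNA was present in each, since RBCS1A, the small subunit of Rubisco, had 7473 RPKM in line #3, 7447 in line #6 and 8146 in Col-0. Root genes did not go together. The root hair factor RHD6 had 0 reads in all 3 libraries, while PYK10 had 647 reads in line #3, 895 in line #6 and 598 in Col-0. Root content was not tested. Genes of anthers were unequal. GRP17 had 506 reads in line #3, 1 in line #6 and 56 in Col-0, ATA27 had 176 in line #3, 0 in line #6 and 73 in Col-0, and ATA20 had 206 in line #3, 21 in line #6 and 61 in Col-0. All 3 were highest in line #3 and lowest in line #6, and the part of flower tissue in the values below was not tested. In such bulk RNA, fewer cells with active ribosome synthesis and less RNA per cell cannot be told apart.

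At the edge of the rule, AT1G24240 had 33 reads in line #3, 33 in line #6 and 34 in Col-0, AT5G25230 had 38 in line #3, 32 in line #6 and 30 in Col-0, and AT1G07070 had 50 in line #3, 27 in line #6 and 24 in Col-0. Just under the minimum, AT2G42740 had 37 reads in line #3, 29 in line #6 and 32 in Col-0, AT3G02190 had 23 in line #3, 35 in line #6 and 39 in Col-0, AT3G04230 had 28 in line #3, 40 in line #6 and 23 in Col-0, and AT2G07734 had 37 in line #3, 24 in line #6 and 30 in Col-0. These genes were picked for totals nearest to the minimum, so similar totals on both sides follow from the choice.

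The cytosolic members together took a near constant part of all reads: 1.32% in line #3, 1.30% in line #6 and 1.33% in Col-0. Among reads of nuclear genes other than rRNA genes, the cytosolic members differed more between the libraries. Their share was 2.03% in line #3 (95% Wilson interval 2.025 to 2.045), 1.69% in line #6 (1.684 to 1.702) and 1.87% in Col-0 (1.858 to 1.878), so line #3 lay above Col-0 and line #6 below it. The intervals cover counting error only, and with 1 library for each genotype the differences have no replicate check. The 60S members had 1.14% in line #3, 0.938% in line #6 and 1.02% in Col-0, the 40S members 0.809% in line #3, 0.684% in line #6 and 0.769% in Col-0, and the stalk members 0.0840% in line #3, 0.0711% in line #6 and 0.0788% in Col-0. The 39 cytosolic genes outside the rule had the same order, with 0.315% in line #3, 0.270% in line #6 and 0.296% in Col-0. Folds of single genes were taken after a further scaling of the libraries, TMM, which the shares do not have. On nuclear genes its factors were 1.03 in line #3, 0.993 in line #6 and 0.977 in Col-0. Shares and folds are thus on different scales. With scaling on nuclear genes, the cytosolic members had a median log2 fold change against Col-0 of 0.01 in line #3, and 85 of 168 lay above Col-0. In line #6 the median was -0.21, and 142 of 168 lay below Col-0.

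Levels of single genes were compared as RPKM, reads per kilobase of gene model after scaling to the total reads of the library. The median cytosolic member had 72.4 RPKM in line #3, 75.3 in line #6 and 77.3 in Col-0, against 17.5 in line #3, 17.7 in line #6 and 16.3 in Col-0 for the members of organelle type. The most abundant 60S gene was AT4G27090, which encodes L14, with 355 RPKM in line #3, 311 in line #6 and 290 in Col-0. AT1G02780 for L19 had 308 RPKM in line #3, 295 in line #6 and 279 in Col-0. AT3G04400 for L23 had 285 RPKM in line #3, 283 in line #6 and 247 in Col-0. All 3 were highest in line #3. In the 40S subunit AT5G20290, which encodes S8, had 300 RPKM in line #3, 309 in line #6 and 267 in Col-0. AT1G72370 for SA had 253 RPKM in line #3, 275 in line #6 and 264 in Col-0. AT4G34670 for S3a had 224 RPKM in line #3, 239 in line #6 and 227 in Col-0. In RPKM these 3 were highest in line #6, but after TMM scaling, the library scaling used in the test below, line #3 lay above line #6 for each of them. None of the 6 genes passed that test.

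Summed over paralogs, with the genes outside the rule added, the 80 families lay closer together in proportion than single genes. In Col-0 the quartiles of the cytosolic members were 40.3 and 128 RPKM. Those of the families were 174 and 274 RPKM, a ratio of 1.57, although their range in RPKM units was not narrower. Their median was 207 RPKM in line #3, 211 in line #6 and 215 in Col-0, and in Col-0 they ran from 69.5 RPKM for L39 to 448 for S3. Of 77 families with several genes, 72 had the same leading paralog in all 3 libraries, and in the median family that gene held 59.0% of the family's RPKM in Col-0. The share of the leading gene moved by a median of 3.06 percentage points between libraries and by 12.1 at most.

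To compare the genotypes, both lines were set as replicates of the overexpression against Col-0 in edgeR over 18802 genes, with p adjusted over all of them. The lone Col-0 pool is thus assumed to vary like the lines, and p-values measure only the spread between these pools. Of the 275 members, 2 passed an adjusted p of 0.05, which is 1 higher and 1 lower. Over all genes tested 0.425% passed, 0.229% higher and 0.197% lower. Of the cytosolic members 1 passed, the S29 gene AT4G33865, and it was lower. At an unadjusted p under 0.05 there were 25 members, 3 of them higher and 22 lower, and among the cytosolic members 16, with 1 higher and 15 lower. Over all genes 7.38% had such a p, 3.72% higher and 3.65% lower. By direction, 1.09% of the members were higher and 8.00% lower at that p, and 0.595% of the cytosolic members were higher and 8.93% lower. Of the 15 cytosolic members lower at that p, 8 have gene models under 500 bases, a class described below. DESeq2 also called 2 members, against 0.234% of all genes, and gave 7 (2.55%) at an unadjusted p under 0.05, against 1.69% of all genes.

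**Figure D1:**
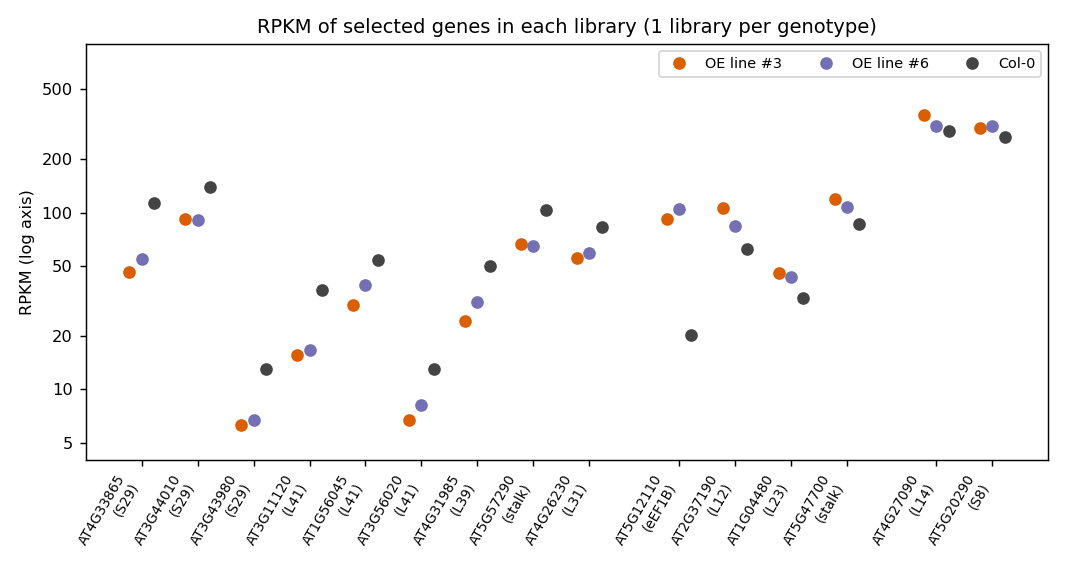
RPKM (log axis) of selected genes in OE line #3, OE line #6 and Col-0, 1 point for each library. Chosen genes that were low against Col-0 are on the left, chosen genes that were high in the middle, and an abundant gene of each subunit on the right. The choice is not the full ranking. AT5G15760 and AT3G28500, also lower in both lines, and AT3G06040, also higher in both, are not drawn. The S29, L41 and L39 genes have both lines below Col-0, AT5G12110 has both lines at 92.3 and 105 RPKM against 20.2 in Col-0, and the L14 gene lies between 290 and 355 RPKM.

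The member that rose was not a ribosomal protein gene. AT5G12110 encodes a subunit of eEF1B, the exchange factor that reloads the elongation factor eEF1A with GTP, and its description names ribosomal protein S6 beside EF1B. It lies on the plus strand of chromosome 5 at 3914468 to 3916896 in TAIR10.1. It had 1000 reads in line #3, 1061 in line #6 and 189 in Col-0, and both lines were well above the wild type. The log2 fold change was 2.24 (SE 0.20), with an adjusted p of 4.61e-05 in edgeR. The 3 other eEF1B genes did not pass. AT1G30230 had 1714 reads in line #3, 2050 in line #6 and 1811 in Col-0. AT2G18110 had 317 reads in line #3, 333 in line #6 and 365 in Col-0. AT5G19510 had 923 reads in line #3, 937 in line #6 and 821 in Col-0.

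The cytosolic member that fell encodes S29, a short zinc-binding protein of the head of the 40S subunit with 3 genes. AT4G33865 had 235 reads in line #3, 259 in line #6 and 493 in Col-0, and fell by 1.20 on the log2 scale (SE 0.18 and an adjusted p of 0.00407 in edgeR). Its paralog AT3G44010 had 513 reads in line #3, 474 in line #6 and 672 in Col-0 (log2 fold change -0.65, adjusted p = 0.241). The weakly expressed AT3G43980 had 29 reads in line #3, 29 in line #6 and 52 in Col-0 (-1.04, adjusted p = 0.428). In all 3 genes both lines lay below Col-0, and only the first passed the test. Summed over the 3 genes, S29 had 777 reads in line #3, 762 in line #6 and 1217 in Col-0, with a log2 fold change of -0.86 (SE 0.18 and an adjusted p of 0.0361 in edgeR). It was the only one of the 80 families to pass, against 0.482% of all rows when families were summed. The call of the family was lost with total-read scaling (adjusted p = 0.573) and in DESeq2 (0.134), within a range of 0.0356 to 0.573 over the 4 settings tried for families, while that of AT4G33865 held in each setting, with adjusted p between 8.57e-04 and 0.0406.

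The coding sequences of the S29 genes are shown to give the distance between the copies, since how reads that fit several genes were counted is not known. All are taken from RefSeq TAIR10.1, 5′ to 3′ on the coding strand, and capitals mark bases that differ from the first gene of the set. AT4G33865 lies on the minus strand of chromosome 4 at 16233045 to 16234273, and AT3G44010 and AT3G43980 lie on the minus strand of chromosome 3 at 15799481 to 15801227 and at 15778275 to 15779360.
AT4G33865: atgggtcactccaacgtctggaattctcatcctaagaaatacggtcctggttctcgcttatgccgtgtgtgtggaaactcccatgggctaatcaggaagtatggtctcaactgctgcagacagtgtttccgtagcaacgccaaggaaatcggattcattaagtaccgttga
AT3G44010: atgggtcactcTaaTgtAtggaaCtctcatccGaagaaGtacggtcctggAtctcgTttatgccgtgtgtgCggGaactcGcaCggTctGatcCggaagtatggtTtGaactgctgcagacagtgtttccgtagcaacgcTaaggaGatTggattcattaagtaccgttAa
AT3G43980: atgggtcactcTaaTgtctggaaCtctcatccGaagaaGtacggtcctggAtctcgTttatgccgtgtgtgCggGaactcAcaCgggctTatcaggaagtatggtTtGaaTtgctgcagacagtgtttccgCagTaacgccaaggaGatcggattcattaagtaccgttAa
Each has 171 bases, and AT3G44010 and AT3G43980 differ from AT4G33865 in 21 and 19 of them. Translation gives 56 residues, and 0 of them differ, so the 3 genes encode the same protein.

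L41 is the shortest protein of the large subunit, a helix of basic residues at the face between the subunits. AT3G11120 had 54 reads in line #3, 54 in line #6 and 108 in Col-0 (log2 fold change -1.20, with an SE of 0.26 and an adjusted p of 0.0800 in edgeR). AT1G56045 had 116 reads in line #3, 142 in line #6 and 180 in Col-0 (-0.69, adjusted p = 0.314). AT3G56020 had 29 reads in line #3, 33 in line #6 and 49 in Col-0 (-0.86, adjusted p = 0.580). Both lines were below Col-0 for each gene, but none passed. AT3G11120 passed with total-read scaling (adjusted p = 0.0371) and with scaling on nuclear genes (0.0432), and its adjusted p ranged from 0.0371 to 0.99997 over all settings. The L41 family had 199 reads in line #3, 229 in line #6 and 337 in Col-0 (-0.86, adjusted p = 0.0548). The S29 and L41 genes with few reads were picked out after the values were seen. The coding sequences are printed for the same reason as those of S29, and capitals mark bases that differ from AT3G11120, which lies on the plus strand of chromosome 3 at 3481020 to 3481485. AT1G56045 lies on the plus strand of chromosome 1 at 20962570 to 20963546, and AT3G56020 on the minus strand of chromosome 3 at 20790502 to 20791163.
AT3G11120: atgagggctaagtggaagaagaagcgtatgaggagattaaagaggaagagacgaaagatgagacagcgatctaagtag
AT1G56045: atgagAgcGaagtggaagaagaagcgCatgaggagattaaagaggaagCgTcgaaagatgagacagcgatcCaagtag
AT3G56020: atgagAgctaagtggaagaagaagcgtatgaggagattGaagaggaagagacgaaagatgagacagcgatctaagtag
The 78 bases encode 25 residues, of which 0 differ between the genes, and AT1G56045 and AT3G56020 differ from AT3G11120 at 6 and 2 bases. The protein is the same, while the share of reads that the copies exchanged is unknown.

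L39, another short basic protein near the exit of the peptide tunnel, followed. AT4G31985 had 109 reads in line #3, 130 in line #6 and 192 in Col-0, with a log2 fold change of -0.89 (SE 0.21 and an adjusted p of 0.113 in edgeR). Its paralog AT2G25210 had 58 reads in line #3, 65 in line #6 and 78 in Col-0. The L39 family together had 167 reads in line #3, 195 in line #6 and 270 in Col-0 (-0.78, adjusted p = 0.124). The family with the highest value was L12, with 2079 reads in line #3, 1817 in line #6 and 1408 in Col-0 (0.27, adjusted p = 0.867). In all, 6 of the 80 families had an unadjusted p under 0.05, 39 were lower in both lines and 7 were higher in both.

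The low values went with the length of the gene model. Of the cytosolic members, 11 had a gene model under 500 bases, and their median log2 fold change was -0.69, with 9 lower in both lines (81.8%). Of all genes with at least 100 reads, 158 were as short, and they too were low: their median was -0.36, and 65.2% were lower in both lines. At 500 bases or more the median was -0.08 over 157 cytosolic members and 0.00 over 14901 genes, but the 2 sets differed in length. At 1500 bases or more lay 2 of these members and 8358 of these genes. From 500 to 700 bases the median was -0.09 for the members and -0.16 for all genes. It was -0.10 and -0.09 from 700 to 1000 bases, and -0.02 and -0.03 from 1000 to 1500 bases. Under 400 bases the 4 cytosolic members had a median of -0.88 against -0.45 over 67 genes, and from 400 to 500 bases the 7 members had -0.55 against -0.34 over 91 genes. Calls went the same way: 8 of the 158 short genes (5.06%) were called lower, and 24 of the 14901 longer ones (0.161%), while among the cytosolic members it was 1 of 11 short genes (9.09%), AT4G33865 with its gene model of 439 bases, and 0 of 157 longer ones. At an unadjusted p under 0.05, 8 of the 11 short cytosolic members and 34.2% of the 158 short genes were lower. Of the longer genes it was 7 of the 157 cytosolic members (4.46%) and 3.62% of all. From 500 to 700 bases it was 5.66% of the members and 14.3% of all genes. It was 5.80% and 7.48% from 700 to 1000 bases, and 0% and 3.95% from 1000 to 1500 bases. The sign of the S29, L41 and L39 values is thus shared by other short genes, and the part of length in these values was not tested.

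**Figure D2:**
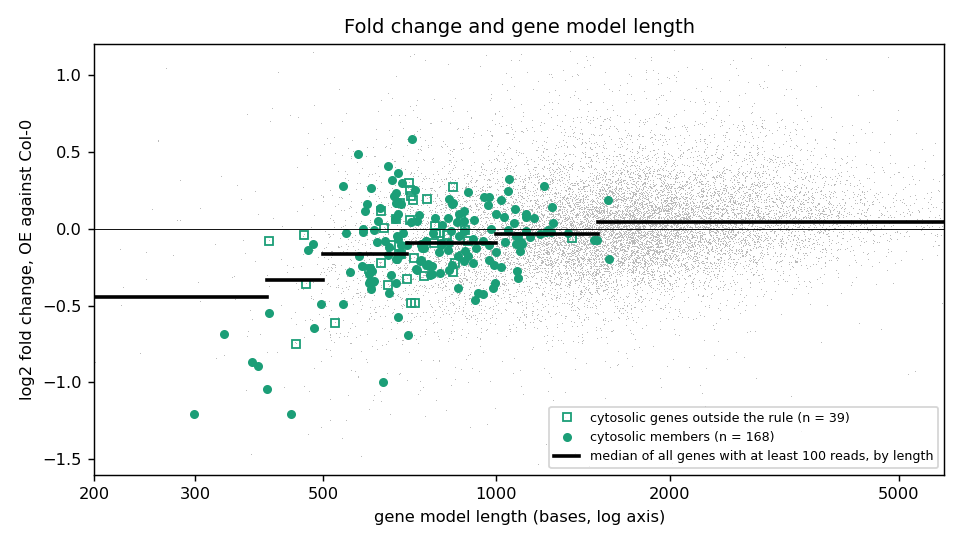
Log2 fold change of both OE lines against Col-0 by length of the gene model (log axis), with cytosolic members as filled circles, cytosolic genes outside the rule as open squares, all genes with at least 100 reads as grey dots and the median of those genes in each length class as black bars (values beyond the axis are not drawn). Short genes lie low as a class, with a median of -0.45 under 400 bases, and the lowest cytosolic members lie below that bar.

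Over all members the median log2 fold change was -0.10, and it was -0.09 over the cytosolic members, against 0.01 over all genes tested. In both lines 137 members were lower than Col-0 (49.8%), as were 83 of the 168 cytosolic members (49.4%), against 34.6% of all genes. Both lines were set against the same Col-0 library, so their signs are not independent. The share also varied with length. From 500 to 700 bases it was 49.1% of cytosolic members and 57.1% of genes with at least 100 reads. It was 56.5% and 47.8% from 700 to 1000 bases, and 24.2% and 39.3% from 1000 to 1500 bases. The part of length in this excess was not tested. Higher than Col-0 in both lines were 41 members (14.9%) and 26 cytosolic members (15.5%), against 34.9% of all genes. By line the 2 medians were apart: the cytosolic members had 0.01 in line #3 and -0.20 in line #6, against 0.00 in each line over all genes. With total reads in place of TMM they had -0.04 in line #3 and -0.07 in line #6, and all genes had -0.05 in line #3 and 0.14 in line #6.

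**Figure D3:**
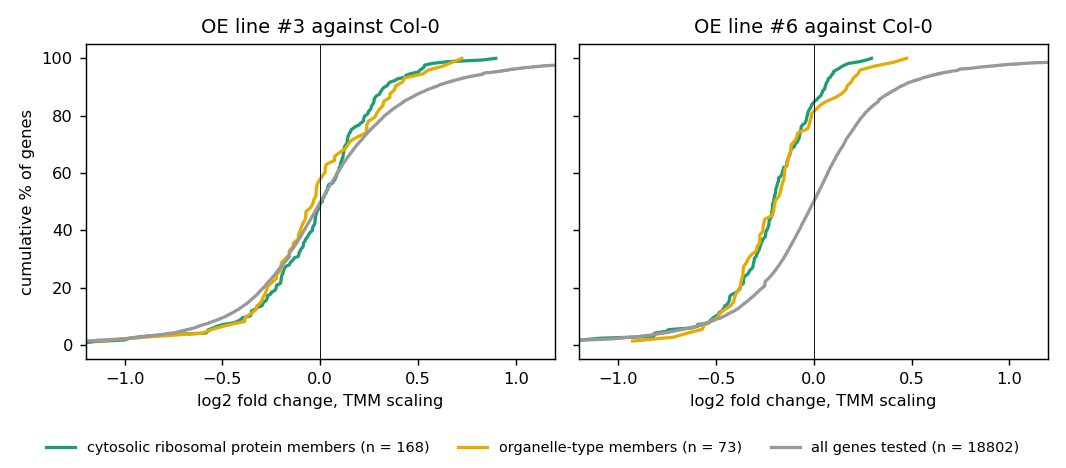
Cumulative percentage of genes (y axis) by log2 fold change against Col-0 after TMM scaling (x axis) in OE line #3 (left) and OE line #6 (right), for 168 cytosolic members, 73 organelle-type members and 18802 genes tested. In line #3 the curves cross near 0, and in line #6 both ribosomal protein curves lie left of that of all genes, with a median of -0.20 for the cytosolic members.

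Both lines also stood apart from each other. Relative to line #3, line #6 was lower in 151 of 168 cytosolic members (89.9%), with a median of -0.20, while 50% of all genes were lower in line #6. The count was 78 of 84 for the 60S subunit, 63 of 73 for the 40S subunit and 10 of 11 for the stalk. It was 34 of 39 for the cytosolic genes outside the rule and 76 of 80 for the families. Each line had 1 library, so this difference could not be tested, and genes that share a library are not independent of each other. The size depends on the scaling: with total reads in place of TMM, line #6 was lower in 86 of 168 cytosolic members, with a median of -0.01. That scaling also moved the median of all genes to -0.05 in line #3 and 0.14 in line #6, and relative to it the cytosolic members had 0.01 in line #3 and -0.20 in line #6.

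Other lists differed in how many genes were lower in line #6. Of 39 factors of ribosome biogenesis 33 were lower in line #6 than in line #3, with a median of -0.25, and so were the 3 genes of RACK1, a scaffold on the 40S head, and 58 of the 73 organelle-type members. Of 51 initiation factors it was 35, with a median of -0.05. Of 12 genes of the TOR pathway and of regulators of ribosomal protein genes it was 4, with a median of 0.11. The order of nuclear rRNA reads, 8.82% in line #6 against 15.9% in line #3, and that of the flower genes went the same way, and their part was not tested.

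**Figure D4:**
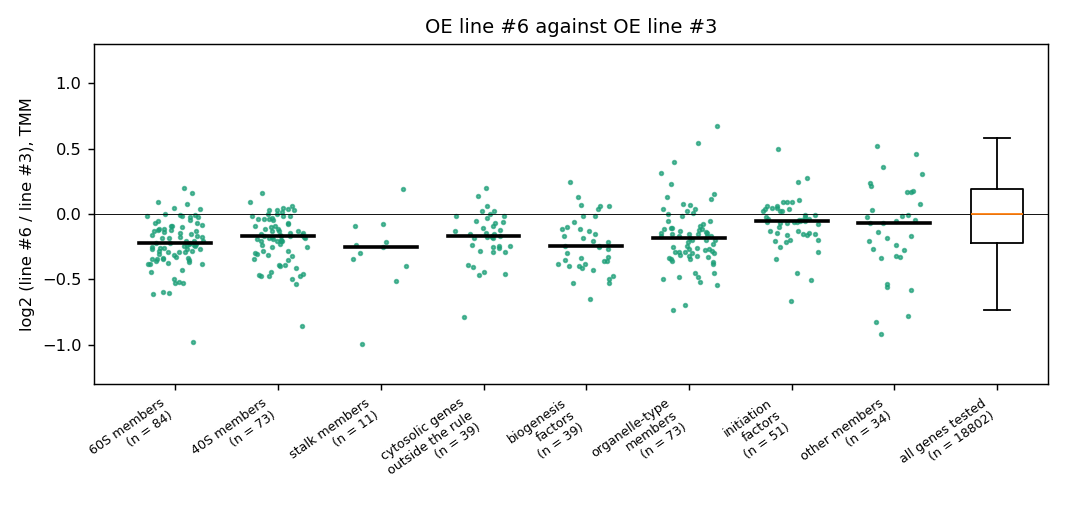
Log2 ratio of OE line #6 to OE line #3 after TMM scaling for each gene, by class, with bars at the median, beside a box for all genes tested (quartiles, with whiskers from the 5th to the 95th percentile). The 60S, 40S, stalk and biogenesis classes lie mostly below 0, with medians of -0.23, -0.17, -0.25 and -0.25, while the median of all genes is at 0.00.

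Single members at the ends of this ratio were named by a rule that asks for a mean of at least 100 reads. AT1G27400 for L17 had 445 reads in line #6 and 635 in line #3 (log2 ratio -0.60), with 420 in Col-0. AT3G28900 for L34 had 261 in line #6 and 370 in line #3 (-0.60), with 266 in Col-0. AT1G80750, a nucleolar relative, had 273 in line #6 and 383 in line #3 (-0.58), with 272 in Col-0. AT1G75350 of organelle type had 988 in line #6 and 1351 in line #3 (-0.54), with 991 in Col-0. Line #3 had the most reads of the 3 libraries in each of these genes. At the other end were 3 L18ae-like genes, which are not counted as ribosomal proteins here. AT3G14595 had 268 reads in line #6 and 175 in line #3 (0.52). AT1G17080 had 371 in line #6 and 254 in line #3 (0.45). AT1G53560 had 120 in line #6 and 88 in line #3 (0.36). AT5G20180, of organelle type, had 118 in line #6 and 89 in line #3 (0.31).

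The stalk held members that leaned either way, and none passed. AT3G09200, which encodes P0, the base of the stalk, had 2547 reads in line #3, 2547 in line #6 and 2251 in Col-0, a log2 fold change of -0.03. AT5G57290, of the plant-specific type of acidic protein, had 541 reads in line #3, 489 in line #6 and 722 in Col-0 (-0.69, with an SE of 0.18 and an adjusted p of 0.205 in edgeR). AT5G47700 had 931 reads in line #3, 782 in line #6 and 581 in Col-0, with both lines above Col-0 (0.36, with an SE of 0.20 and an adjusted p of 0.772). The other 8 stalk genes ran from -0.99 for AT3G28500, with 45 reads in line #3, 24 in line #6 and 60 in Col-0, to 0.17 for AT4G00810, with 410 reads in line #3, 332 in line #6 and 287 in Col-0.

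Below AT5G12110, the highest members that kept their sign in both lines did not pass. AT2G37190 for L12, a protein at the foot of the stalk, had 873 reads in line #3, 644 in line #6 and 441 in Col-0 (log2 fold change 0.58, with an SE of 0.22 and an adjusted p of 0.531 in edgeR). AT1G04480 for L23 had 342 reads in line #3, 304 in line #6 and 212 in Col-0 (0.41, adjusted p = 0.714). The organelle-type genes AT3G06040, with 224 reads in line #3, 215 in line #6 and 130 in Col-0, and AT5G47320, with 264 reads in line #3, 286 in line #6 and 181 in Col-0, had log2 fold changes of 0.55 and 0.40. In all 4 both lines lay above Col-0, which the choice by sign required.

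Paralogs of a family did not always go together. Over 114 pairs with enough reads the widest gap was in L31, a protein at the tunnel exit. AT4G26230 had 433 reads in line #3, 431 in line #6 and 559 in Col-0 (log2 fold change -0.58), while AT5G56710 had 1169 reads in line #3, 862 in line #6 and 736 in Col-0 (0.27), a gap of 0.84. AT2G19740, the third L31 gene, had 371 reads in line #3, 356 in line #6 and 282 in Col-0 (0.16). In L9, AT1G33140 and AT1G33120 each had a log2 fold change of 0.20, and AT4G10450, with 152 reads in line #3, 113 in line #6 and 159 in Col-0, had -0.46. In L37, AT1G52300 had 1171 reads in line #3, 980 in line #6 and 762 in Col-0 (0.30). AT3G16080 had 305 reads in line #3, 256 in line #6 and 309 in Col-0 (-0.34). These pairs were picked as the most distant, so no test is given, and none of the genes passed alone (adjusted p of 0.316 or more in edgeR). The L9 genes also show the limit of counts for near copies. The coding sequences of AT1G33120 and AT1G33140 are 99.1% identical, and that of AT4G10450 is 80.3% identical to the second. Over 192 pairs of paralogs the median identity was 84.1%, and 14 cytosolic members have a paralog of at least 95%. How reads that fit several genes were counted is not known here.

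Several of the genes are known from mutants with pointed leaves or altered growth. Of 23 such genes, 19 among the members and 4 outside the rule, 0 passed in edgeR, against 0.425% of all genes, and 1 had an unadjusted p under 0.05, against 7.38%. With 23 genes a count of 0 calls is near the share of all genes. The 1 gene was AT2G37270, an S5 gene, with 434 reads in line #3, 422 in line #6 and 496 in Col-0 (log2 fold change -0.42, adjusted p = 0.606). AT1G22780, an S18 gene whose mutant is pointed first leaf, had 465 reads in line #3, 440 in line #6 and 465 in Col-0 (-0.24). AT3G53020, the L24 gene known as SHORT VALVE1, had 1363 reads in line #3, 1385 in line #6 and 1407 in Col-0 (-0.24). AT4G31700, an S6 gene and so a target of S6 kinase below TOR, had 2585 reads in line #3, 2106 in line #6 and 2268 in Col-0 (-0.15). The highest value was 0.20 for the L9 gene AT1G33140, with 1872 reads in line #3, 1805 in line #6 and 1388 in Col-0, and 20 of the 23 genes were lower in line #6 than in line #3.

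Other parts of the translation machinery were read against the same shares, 0.425% of all genes called and 7.38% at an unadjusted p under 0.05, so that a count of 0 calls in lists of this size is near the share of all genes. Of 39 ribosome biogenesis factors 0 passed in edgeR and 0 had an unadjusted p under 0.05, with a median log2 fold change of -0.03. Of 12 genes of the TOR pathway and of regulators of ribosomal protein genes 0 passed, with 0 at that p and a median of 0.06. Of 61 cytosolic initiation factors 51 were tested and 0 passed, with 4 at an unadjusted p under 0.05 and a median of -0.04. The 3 RACK1 genes had 0 of either and a median of -0.05. Of 96 organelle ribosomal proteins 93 were tested and 0 passed, with 9 at that p, 8 of them lower, and a median of -0.11. This list is not separate from the members: it includes the 73 organelle-type members, which gave 7 of the 9. DESeq2 also called 0 genes in each of these lists and gave 1 unadjusted p under 0.05 among them, for an organelle ribosomal protein. The lowest p in the TOR list was that of AT3G08730, an S6 kinase, with 1499 reads in line #3, 1698 in line #6 and 1728 in Col-0 (-0.32, adjusted p = 0.796).

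The 2-fold limit that the study used for RPKM was also applied, without the DEGseq Q-value under 0.05 that the study required beside it. Above 2 in both lines was 1 of the 275 (0.364%), AT5G12110, against 1.56% of all genes tested and 0.498% of those with at least 100 reads, the minimum that the members also meet. Under 0.5 in both lines were 2 (0.727%), AT4G33865 and AT3G11120, against 0.633% of all genes and 0.186% of those with at least 100 reads. AT4G33865 had 46.3 RPKM in line #3, 54.7 in line #6 and 113 in Col-0. AT3G11120 had 15.7 RPKM in line #3, 16.8 in line #6 and 36.4 in Col-0. On TMM-scaled counts AT3G43980 came under 0.5 as well, which made it 3.

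Promoter elements were sought in the 250 bases before the annotated gene start, on both strands. Site II was searched as TGGGCC or TGGGCT, the telo box as AAACCCTA and the core of the heat shock element, the site that heat stress factors bind, as GAANNTTC. Site II was found in 118 of 168 cytosolic members (70.2%) and in 69.2% of the 39 cytosolic genes outside the rule, against 19.2% of 27443 protein-coding genes. The telo box was found in 17.9% of cytosolic members against 4.49%, and both elements in 24 of them (14.3%) against 1.36%. Organelle-type members had site II in 41.1% and the telo box in 4.11%. The heat shock element core was found in 15 cytosolic members (8.93%), which is near the 9.55% of all protein-coding genes. A match is a description of letters and not a bound site.

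**Figure D5:**
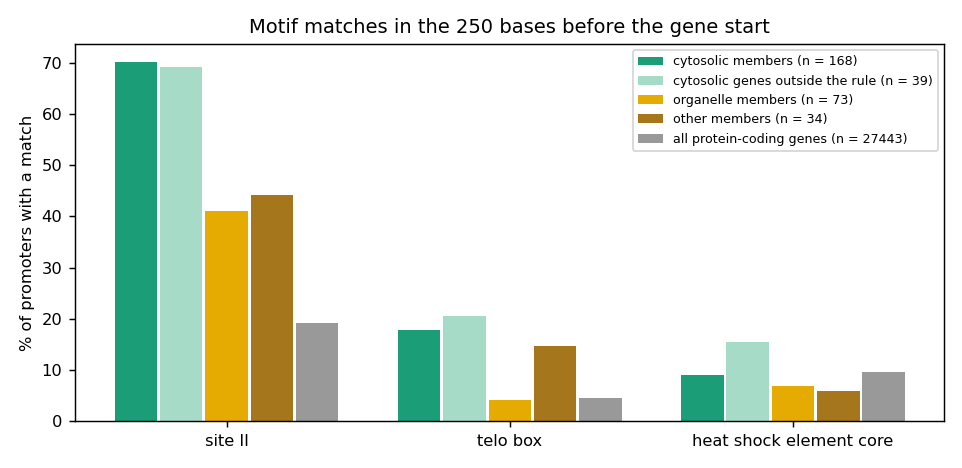
Percentage of promoters (250 bases before the gene start) with a match to site II, the telo box or the heat shock element core, for the cytosolic members, the cytosolic genes outside the rule, the organelle-type members, the other members and all protein-coding genes. Site II is found in 70.2% of the cytosolic members against 19.2% of all genes, and the heat shock element core in 8.93% against 9.55%.

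Medians were also set side by side by element, with no test. The median log2 fold change was -0.09 in the 118 cytosolic members with site II and -0.09 in the 50 without it. It was -0.06 in the 30 with a telo box and -0.10 in the 138 without it, and -0.20 in the 15 with a heat shock element core and -0.08 in the 153 without it. The windows of AT4G33865, the S29 gene that fell, and of AT4G27090, the most abundant 60S gene, are printed for comparison, from RefSeq TAIR10.1 and 5′ to 3′ on the gene's strand, with matches in capitals. They lie on the minus strand of chromosome 4 at 16234274 to 16234523 and at 13595253 to 13595502.
AT4G33865: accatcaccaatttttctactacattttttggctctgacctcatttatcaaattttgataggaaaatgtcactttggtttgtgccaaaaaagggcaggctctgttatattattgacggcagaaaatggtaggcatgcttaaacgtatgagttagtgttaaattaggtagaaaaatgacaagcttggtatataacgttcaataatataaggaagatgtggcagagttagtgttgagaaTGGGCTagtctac
AT4G27090: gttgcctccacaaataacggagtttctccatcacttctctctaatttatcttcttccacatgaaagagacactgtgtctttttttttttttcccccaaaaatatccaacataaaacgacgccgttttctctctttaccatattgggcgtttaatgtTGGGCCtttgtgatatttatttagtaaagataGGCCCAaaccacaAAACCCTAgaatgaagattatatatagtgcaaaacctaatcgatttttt
The S29 window holds 1 site II and no telo box, and the L14 window holds 2 sites II, 1 on each strand, and 1 telo box. Neither holds the heat shock element core.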

How the data were processed

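RNA from the aerial parts of Col-0, OE line #3 and OE line #6 was poly(A)-selected, made into double-stranded cDNA and sequenced on the Illumina HiSeq 2000 system, with 1 library for each genotype and no step named that marks the strand. The authors mapped reads to TAIR10, with CASAVA 1.7 among the tools, and deposited unnormalized counts of reads per gene together with the other measure used, the length of each gene model. Which aligner and counter they ran, and what became of reads that fit several genes, is not given in the sources used. The Col-0 counts are listed with each line and are identical. The deposited ratios, q-values and lists of changed genes are the authors' own comparisons and were not used.

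RPKM was recomputed from reads, length and the total of reads. Depth was 11556077, 10786332 and 9968154 reads in line #3, line #6 and Col-0. Shares carry 95% Wilson intervals. Counts were fitted with edgeR 4.0.16 in R 4.3.3 (TMM, estimateDisp, glmQLFit, glmQLFTest, prior count 0.125), with both lines as replicates, over the 18802 genes that reached 10 reads in some library, and Benjamini-Hochberg adjustment. TMM factors were 0.945, 1.08 and 0.981 in the same order, the residual degree of freedom was 1, and the biological coefficient of variation was 0.127. The SE was derived as the size of the log2 change over the square root of F. Folds of 1 line are differences of log2 CPM. Reads of paralogs were also summed to families and fitted again. Alternatives were other scalings and filters, DESeq2 1.42.0, and each line alone. Members and lists were chosen with earlier results of these data known. Genes were named by their level, by a call, by the largest folds and line ratios at a mean of at least 100 reads, by distance from paralogs, and by known mutants. Some lowly expressed paralogs were added after their values were seen. Sequences came from RefSeq TAIR10.1, in which all 275 members had an entry, and were compared with Biopython 1.88. Figures were drawn with matplotlib 3.10.9.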

Additional observations from a re-analysis of the deposited data

Results flagged for a closer look

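The share of nuclear reads outside rRNA genes moved to opposite sides of Col-0 in the lines, and this difference between the lines was not tested, since each has 1 library. The cytosolic members stood 0.167 percentage points above Col-0 in line #3 and at -0.175 points in line #6. Their median log2 fold change with scaling on nuclear genes was 0.01 in line #3 and -0.21 in line #6, so the typical gene did not rise in line #3. All 275 members stood at 0.171 points in line #3 and at -0.270 points in line #6. For the 60S members the differences were 0.121 in line #3 and -0.0826 in line #6, for the 40S members 0.0405 in line #3 and -0.0846 in line #6, and for the stalk members 0.00522 in line #3 and -0.00773 in line #6.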

How the results depend on the processing

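No paired analysis was possible because the numbers of the lines name insertions and there is 1 Col-0 library. Every alternative with a test kept the sign and the side of the threshold for AT5G12110 and AT4G33865. Leaving out a line gave folds without a test, so counts of calls had no value there. The count of lower members was 2 with total reads and 2 with TMM on nuclear genes, against 1, and with cytosolic ribosomal proteins only the count of higher members was 0. The 1 called family became 0 with total reads and 0 in DESeq2. With total reads, an alternative added after the data were seen, the median of the cytosolic members was -0.0439 in line #3, the opposite sign, and -0.0673 in line #6. The share of members in all reads, 1.88% in line #3, 1.89% in line #6 and 1.94% in Col-0, was 2.90% in line #3, 2.46% in line #6 and 2.73% in Col-0 of nuclear reads without rRNA genes, and 1.32% in line #3, 1.30% in line #6 and 1.33% in Col-0 of all reads for cytosolic members only. Of 75 named genes, 7 changed sign with total reads, all of them near 0: AT1G72370 (0.00445), AT4G34670 (0.0252), AT1G01100 (0.0116), AT3G09200 (0.0156), AT3G11250 (0.0194), AT1G48630 (0.0165) and AT1G66580 (0.0277). Leaving out line #3 moved 15 of the 75 past 0 and leaving out line #6 moved 12. Over all genes the calls were 80, against 103 with total reads, 104 with TMM on nuclear genes, 42 with at least 10 reads in every library, 41 without a filter and 44 in DESeq2. With 1 residual degree of freedom and 1 Col-0 pool, small shifts of the kind seen in most members are beyond the test. The rRNA share and flower content of the libraries cannot be told apart from genotype. In both of these contents Col-0 lay between line #3 and line #6.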
